A study of Mus musculus with 24 samples.

Results

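Transcripts of 6 protein-coding Cyp4a genes, named Cyp4a10, Cyp4a14, Cyp4a31, Cyp4a32, Cyp4a12a and Cyp4a12b, were followed in hepatocytes of aged mice. These 6 genes were picked by their symbols out of the 55421 genes in the tables, and all 6 passed the filter on low counts, which kept 13847 genes. RNA came from hepatocytes of 24 male C57BL/6J mice, isolated by collagenase perfusion of the liver and density centrifugation. Mice received vehicle or rapamycin encapsulated in eudragit (eRapa, 42 ppm in the food) from 4 months of age on a normal diet (ND). At 18 months 8 mice stayed on ND with vehicle (ND + veh) and the others were switched for 9 weeks to a high-fat diet (HFD, in which fat supplied 60% of calories). Of the switched mice 7 received vehicle (HFD + veh) and 9 received eRapa (HFD + eRapa). No mice on ND with eRapa were analysed here, so the action of rapamycin was compared only under HFD, in animals that had been treated for many months before the switch. All libraries carried the same batch label, and each was a separate animal by its label. Values are given as raw counts, as CPM (counts per M counts, M being 1000000) and, between genes, as FPKM (fragments per kilobase of transcript per M fragments).

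Cyp4a enzymes are cytochrome P450 monooxygenases of the endoplasmic reticulum. They place a hydroxyl group on the terminal, or omega, carbon of medium- and long-chain fatty acids and of arachidonic acid. Electrons reach them from NADPH through P450 oxidoreductase (Por) with help from cytochrome b5 (Cyb5a). The omega-hydroxy acid is then oxidised to a dicarboxylic acid by alcohol and aldehyde dehydrogenases and shortened by beta-oxidation in peroxisomes. In mouse liver Cyp4a10 and Cyp4a14 are classical targets of PPARα, the nuclear receptor that senses fatty acids. Cyp4a12a is known as a male-biased arachidonate hydroxylase that follows androgen and the male pattern of growth hormone, and Cyp4a12b is its near-identical neighbour.

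The 6 genes lay in 1 cluster on chromosome 4, within 323 kb between bases 115299046 and 115621602 of GRCm38, the assembly also named mm10. Cyp4a12a (chr4:115299046-115332815) and Cyp4a12b (chr4:115411624-115439034) stood at one end on the plus strand. Cyp4a14 (chr4:115486200-115496142) was the only member on the minus strand. Cyp4a10 (chr4:115518264-115533649), Cyp4a31 (chr4:115563649-115579015) and Cyp4a32 (chr4:115600969-115621602) followed on the plus strand. Cyp4a29 and Cyp4a30b, also annotated nearby as protein-coding, had 0 counts in every library and were not followed. The annotated Cyp4a32 transcript held 3 untranslated bases, against 582 to 982 in the other 5 members, in the annotation used here.

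**Figure D1:**
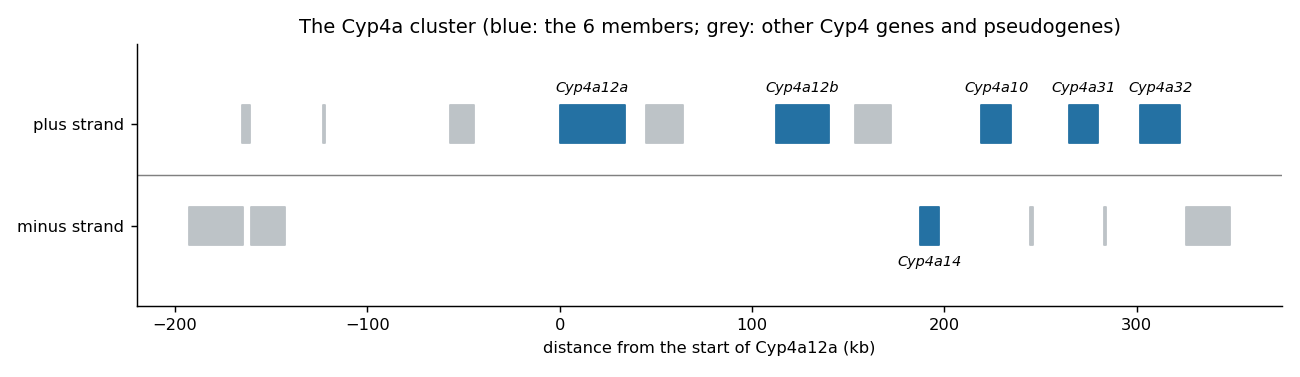
Position of the 6 Cyp4a genes (blue) and of other Cyp4 genes and pseudogenes (grey) on both strands, as distance in kb from the start of Cyp4a12a. Cyp4a14 is the only blue gene on the minus strand, and the cluster from Cyp4a12a to Cyp4a32 spans 323 kb.

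The coding sequences fell into 3 kinds, which matters because reads of near-identical copies are hard to assign. Over the coding bases Cyp4a12a and Cyp4a12b were 98.5% identical, with 23 differing bases. Cyp4a10 was 97.2% identical to Cyp4a32 and 96.6% identical to Cyp4a31. Cyp4a14 shared 74.9 to 75.8% with the other members. The stretch below surrounds the codon of the cysteine that holds the haem iron. It is shown because it displays these 3 kinds in 90 bases, which join the end of exon 11 to the start of exon 12. In Cyp4a10 it ran from base 115529472 to base 115532573 of chromosome 4, with an intron between. Capitals mark bases that differ from Cyp4a10. Cyp4a31 and Cyp4a32 had 0 differences, Cyp4a12a and Cyp4a12b had 6, and Cyp4a14 had 16.
Cyp4a10: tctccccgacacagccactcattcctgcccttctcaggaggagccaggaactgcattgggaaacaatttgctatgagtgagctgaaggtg
Cyp4a31: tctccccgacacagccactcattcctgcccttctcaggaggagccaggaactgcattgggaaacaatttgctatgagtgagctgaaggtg
Cyp4a32: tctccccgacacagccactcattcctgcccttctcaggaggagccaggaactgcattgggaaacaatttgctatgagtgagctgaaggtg
Cyp4a12a: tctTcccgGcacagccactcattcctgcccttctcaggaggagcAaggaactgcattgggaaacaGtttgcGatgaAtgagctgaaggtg
Cyp4a12b: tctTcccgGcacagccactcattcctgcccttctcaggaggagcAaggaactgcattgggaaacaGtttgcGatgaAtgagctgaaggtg
Cyp4a14: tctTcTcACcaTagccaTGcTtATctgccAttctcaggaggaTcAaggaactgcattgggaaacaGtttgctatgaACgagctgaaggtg

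Other stretches do separate the near-identical copies. In exon 6, coding bases 661 to 750 of Cyp4a12a (chr4:115326659-115326748, plus strand) and Cyp4a12b (chr4:115432912-115433001, plus strand) differed at 7 bases, in capitals here. A read that covers any of these 7 bases can be told apart, while one wholly within the identical bases between them cannot.
Cyp4a12a: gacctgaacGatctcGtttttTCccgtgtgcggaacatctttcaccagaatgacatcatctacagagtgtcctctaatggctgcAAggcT
Cyp4a12b: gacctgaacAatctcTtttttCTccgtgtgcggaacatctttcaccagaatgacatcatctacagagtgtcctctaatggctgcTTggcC

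In exon 2, coding bases 190 to 279 of Cyp4a10 (chr4:115519630-115519719), Cyp4a31 (chr4:115565010-115565099) and Cyp4a32 (chr4:115602260-115602349), all on the plus strand, were not the same at 13 positions, which stand in capitals.
Cyp4a10: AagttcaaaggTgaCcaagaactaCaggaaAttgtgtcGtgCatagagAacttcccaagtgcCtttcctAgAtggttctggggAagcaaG
Cyp4a31: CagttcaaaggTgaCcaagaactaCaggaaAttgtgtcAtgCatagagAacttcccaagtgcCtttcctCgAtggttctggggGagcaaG
Cyp4a32: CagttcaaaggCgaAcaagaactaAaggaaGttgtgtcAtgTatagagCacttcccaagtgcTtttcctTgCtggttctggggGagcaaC

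All windows of 100 bases in the annotated Cyp4a14 transcript were unique to that gene. The share of unique windows was 91.8% for Cyp4a31, 87.3% for Cyp4a10 and 79.9% for Cyp4a32. It was 64.2% for Cyp4a12a and 63.8% for Cyp4a12b. The read length and the treatment of reads that map to several places were not given in the sources used here, so the split of counts within the Cyp4a12 pair and within the Cyp4a10, Cyp4a31 and Cyp4a32 trio is uncertain, and sums over the copies are given beside the single genes.

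The libraries held 17.7 to 25.9 M counts. The 6 members together took 0.0664 to 0.208% of them. Their median share was 0.147% on ND, 0.0931% on HFD with vehicle and 0.174% with eRapa. Hepatocyte markers were abundant in all libraries, with a summed level of 55599 to 170244 CPM over 8 genes, among them Alb, Ttr and Apob. In RNA from a bulk preparation, fewer cells of a type and less RNA per cell cannot be told apart.

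Per length, Cyp4a14 had the highest mean level in all 3 groups. In ND + veh the FPKM was 365 ± 179 for Cyp4a14 (SD, n = 8), 161 ± 37.8 for Cyp4a10 and 58.9 ± 47.7 for Cyp4a12a. Cyp4a12b followed with 19.2 ± 22.9, Cyp4a32 with 11.4 ± 2.43 and Cyp4a31 with 7.19 ± 5.21. Within single mice of this group, Cyp4a14 exceeded Cyp4a10 in 7 of 8 and Cyp4a10 exceeded Cyp4a12a in 7 of 8. Cyp4a12b stood above Cyp4a32 in only 4 of 8, so these neighbours did not differ beyond their spread.

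In HFD + veh the FPKM was 255 ± 110 for Cyp4a14 (SD, n = 7), 145 ± 52.3 for Cyp4a10 and 27.2 ± 19.2 for Cyp4a12a. The lowest 3 were Cyp4a32 with 9.11 ± 2.09, Cyp4a31 with 6.14 ± 0.708 and Cyp4a12b with 3.92 ± 2.96. Cyp4a12b was last in this group alone, although it stood below Cyp4a31 in 5 of 7 mice and their ranges overlapped. The ranges of Cyp4a10 and Cyp4a12a did not overlap.

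In HFD + eRapa the FPKM of Cyp4a14 was 317 ± 124 (SD, n = 9) and that of Cyp4a10 was 279 ± 79.9, so the first 2 members came close. Cyp4a14 was the higher in 7 of 9 mice. Cyp4a12a followed with 46.5 ± 18.5, Cyp4a32 with 18.9 ± 3.27, Cyp4a12b with 15.3 ± 8.82 and Cyp4a31 with 8.66 ± 2.09. Cyp4a32 and Cyp4a12b did not differ beyond their spread, with Cyp4a32 above in 5 of 9 mice. Summed over the 6 members, FPKM came to 623 ± 206 for ND + veh, to 446 ± 143 for HFD + veh and to 685 ± 185 for HFD + eRapa.

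**Figure D2:**
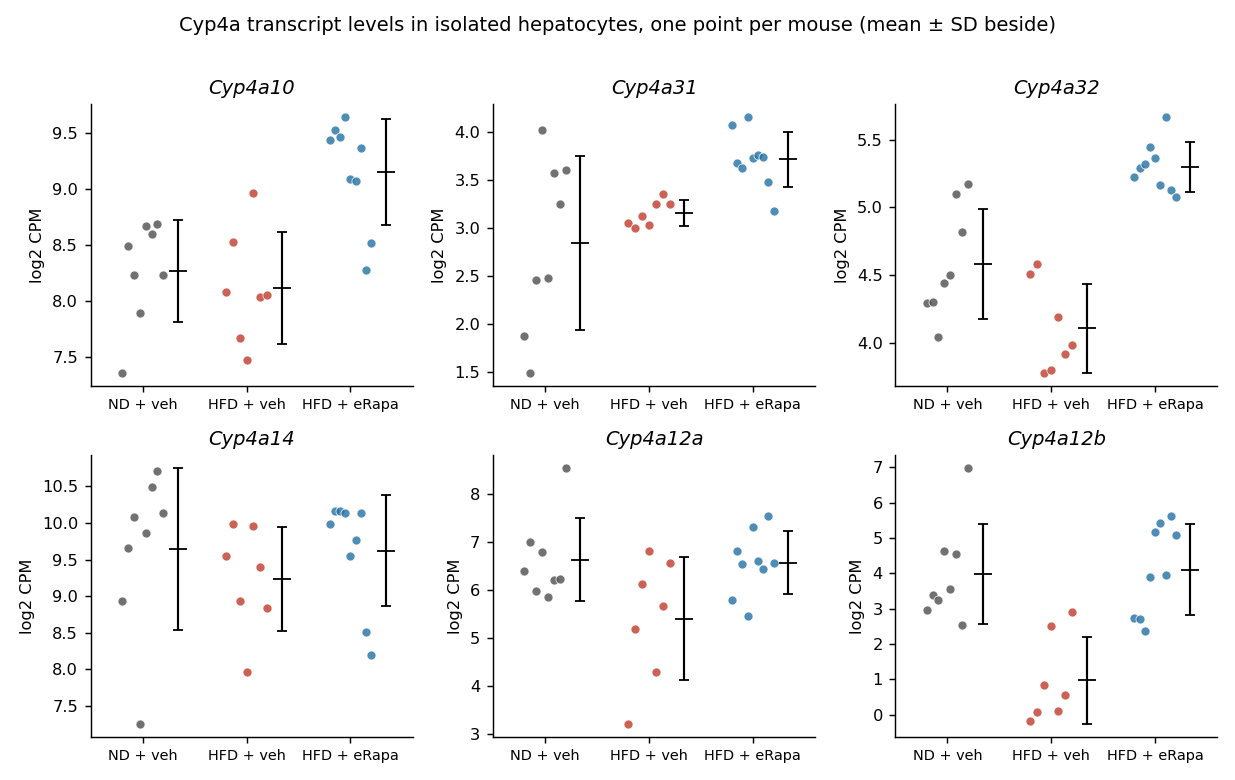
Level of each member as log2 CPM (prior count of 2) in the 3 groups, 1 point per mouse, with the mean and SD beside the points. The 9 HFD + eRapa mice lie above all 7 HFD + veh mice for Cyp4a32, and 6 of the 7 HFD + veh mice lie below all ND + veh mice for Cyp4a12b.

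The comparison of HFD + veh with ND + veh asked how the diet alone changed the family in aged hepatocytes. Cyp4a12b and Cyp4a32 were lower on HFD, and the other 4 members did not pass the test. These 2 of 6 members stand beside 9.86% of the 13847 tested genes that were called lower and 16.0% that were called higher. Genes are termed called at an adjusted p under 0.05 from edgeR's quasi-likelihood test with Benjamini-Hochberg adjustment over all tested genes. Over all tested genes the median log2 fold change was 0.05. In 0 of the 6 members were the groups free of overlap, against 2.44% of tested genes.

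Cyp4a12b showed the largest difference of the family. Its level in ND + veh ran from 5.71 CPM over a median of 11.1 to 125 CPM. In HFD + veh it ran from 0.783 over 1.39 to 7.37 CPM. All 7 HFD + veh mice were below the ND + veh median and 6 of them below the lowest ND + veh mouse, so that the groups overlapped through HFD + veh mouse 7 alone. The log2 fold change was -3.34 ± 0.76 (SE), with an edgeR adjusted p of 0.00442. ND + veh mouse 8 held the highest level by far, and without it the log2 fold change was -2.31 with an edgeR adjusted p of 0.00887. Limma voom with quality weights by group gave -3.08 with an adjusted p of 0.107.

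Its neighbour Cyp4a12a ran from 57.8 over a median of 79.9 to 373 CPM in ND + veh and from 9.13 over 51.0 to 112 CPM in HFD + veh. Here 4 of 7 HFD + veh mice lay below the whole ND + veh group and 2 above its median. The log2 fold change of -1.11 ± 0.47 (SE) did not pass the test (edgeR adjusted p = 0.0787), although it passed with DESeq2 (adjusted p = 0.0368) and when HFD + veh mouse 4 was left out (log2 fold change -1.41, edgeR adjusted p = 0.0434). Without ND + veh mouse 8 it was -0.60, with an edgeR adjusted p of 0.261. Summed over both genes, the counts differed by -1.34 ± 0.49 (SE) on the log2 scale, with an edgeR adjusted p of 0.0465.

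The share of Cyp4a12b in the counts of the pair also differed between the diets. It was 15.0 ± 7.19% (SD, n = 8) on ND, compared with 4.62 ± 2.26% (SD, n = 7) on HFD. By FPKM, in which Cufflinks assigned reads by its own estimate, it was 21.9 ± 5.90% and 12.8 ± 2.12%. The lower share on HFD therefore appeared in both tables, with a smaller gap by FPKM. This share was not tested.

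Cyp4a32 ran from 16.3 over a median of 22.1 to 36.0 CPM in ND + veh and from 13.6 over 15.7 to 23.8 CPM in HFD + veh. The groups overlapped, with 4 of 7 HFD + veh mice below every ND + veh mouse. HFD + veh differed by -0.50 ± 0.16 (SE) on the log2 scale, with an edgeR adjusted p of 0.0279. This call lay close to the threshold. It was lost when ND + veh mouse 6 or 8 or HFD + veh mouse 3, 4 or 6 was left out, with edgeR adjusted p-values of 0.0626, 0.0545, 0.0606, 0.0588 and 0.0604. By FPKM (limma on log2(FPKM + 1)) the difference was -0.29 with an adjusted p of 0.142.

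The PPARα targets Cyp4a10 and Cyp4a14 did not pass the test. Cyp4a10 ran from 164 over a median of 330 to 410 CPM in ND + veh and from 178 over 265 to 498 CPM in HFD + veh. The HFD + veh range held nearly the whole ND + veh range, and the log2 fold change was -0.13 ± 0.23 (SE; edgeR adjusted p = 0.696). Cyp4a14 ran from 153 over 1007 to 1679 CPM in ND + veh and from 250 over 676 to 1014 CPM in HFD + veh. Only 1 of 7 HFD + veh mice exceeded the ND + veh median, yet ND + veh mouse 4 held the lowest value of all, and the log2 fold change was -0.54 ± 0.38 (SE; edgeR adjusted p = 0.304).

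Cyp4a31, the weakest member by FPKM on ND, ran from 2.71 over 7.44 to 16.2 CPM in ND + veh and from 7.93 over 8.61 to 10.2 CPM in HFD + veh. All HFD + veh mice fell inside the wide ND + veh range, and the log2 fold change was 0.08 ± 0.27 (SE; edgeR adjusted p = 0.841). Summed over Cyp4a10, Cyp4a31 and Cyp4a32, the log2 fold change was -0.15 ± 0.22 (SE), with an edgeR adjusted p of 0.635.

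The comparison of HFD + eRapa with HFD + veh asked whether rapamycin altered the family under the diet. Cyp4a10, Cyp4a32 and Cyp4a12b were higher with eRapa, and 0 members were lower, since all 6 log2 fold changes from edgeR lay above 0. These 3 of 6 members stand beside 10.9% of tested genes called higher and 21.1% called lower. All tested genes had a median log2 fold change of -0.04.

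Cyp4a32 was the member with the clearest separation. It ran from 33.7 over a median of 39.0 to 50.7 CPM in HFD + eRapa, against 13.6 to 23.8 CPM in HFD + veh. No HFD + eRapa mouse overlapped the HFD + veh range, which was so for 2.59% of tested genes in either direction and for 1 of the 6 members. The mean was 2.26 times that of HFD + veh, and the log2 fold change was 1.17 ± 0.16 (SE), with an edgeR adjusted p of 3.58e-05. Cyp4a32 shared 13.8% of its windows of 100 bases with Cyp4a10, the far more abundant copy. In HFD + eRapa the means were 593 CPM for Cyp4a10 and 39.5 CPM for Cyp4a32. The part of Cyp4a10 reads in the Cyp4a32 counts was not tested in any comparison.

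Cyp4a10 ran from 309 over a median of 657 to 796 CPM in HFD + eRapa, against 178 to 498 CPM in HFD + veh. All 9 HFD + eRapa mice lay above the HFD + veh median and 7 above its highest mouse. Mice 8 and 9 of HFD + eRapa were the 2 that overlapped. Cyp4a10 was higher by 1.02 ± 0.23 (SE) on the log2 scale, with a mean 2.03 times that of HFD + veh and an edgeR adjusted p of 0.00245. Cyp4a10 held nearly all counts of its trio, and the sum over Cyp4a10, Cyp4a31 and Cyp4a32 gave the same log2 fold change of 1.02, with an edgeR adjusted p of 0.0017.

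Cyp4a12b ran from 5.04 over a median of 15.5 to 49.1 CPM in HFD + eRapa. All 9 mice were above the HFD + veh median and 6 above the highest HFD + veh mouse. The difference was 3.11 ± 0.75 (SE) on the log2 scale, with an edgeR adjusted p of 0.00395. The call was lost with limma voom (adjusted p = 0.0793), with a score of immune markers as a covariate in edgeR (log2 fold change 3.32, adjusted p = 0.0653) and when the counts of the pair were summed (log2 fold change 1.11 ± 0.48 (SE), edgeR adjusted p = 0.0765). Its share in the counts of the pair was 17.5 ± 9.09% (SD, n = 9) and by FPKM 23.8 ± 7.44%, near the shares on ND. Mice 5, 6, 8 and 9 of HFD + eRapa had 33.8 to 49.1 CPM of Cyp4a12b and immune marker scores of -1.74 to -1.03. The other mice of that group had 5.04 to 15.5 CPM and scores of -0.18 to 0.66. ND + veh mouse 8, with 125 CPM, had a score of 0.67. The relation of level to score within a group was not tested.

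Cyp4a12a ran from 44.0 over a median of 95.2 to 188 CPM in HFD + eRapa, and 8 of 9 mice stood above the HFD + veh median. Its log2 fold change of 0.89 ± 0.46 (SE) did not pass the test (edgeR adjusted p = 0.139). Cyp4a31 ran from 8.96 over 13.2 to 17.7 CPM, with 8 of 9 mice above the highest HFD + veh mouse. Its log2 fold change of 0.59 ± 0.26 (SE) did not pass either (edgeR adjusted p = 0.0906). It passed when the fit held only these 2 groups (log2 fold change 0.60, edgeR adjusted p = 0.00543) and when ND + veh mouse 2 was left out (0.59, edgeR adjusted p = 0.0498).

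Cyp4a14 ran from 294 over a median of 1012 to 1151 CPM in HFD + eRapa. Mice 8 and 9 stood apart at the low end, and 4 of 9 mice were above the highest HFD + veh mouse. The log2 fold change of 0.40 ± 0.38 (SE) did not pass the test (edgeR adjusted p = 0.442), unlike that of Cyp4a10.

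The comparison of HFD + eRapa with ND + veh set the treated mice against controls on ND and shares animals with both comparisons above. Cyp4a10 and Cyp4a32 were higher, 2 of 6 members, beside 6.93% of tested genes called higher and 6.54% called lower. Groups without overlap made up 3.37% of tested genes and 0 of the 6 members. The log2 fold change was 0.89 ± 0.22 (SE) for Cyp4a10 (edgeR adjusted p = 0.00722), with 7 of 9 HFD + eRapa mice above all ND + veh mice. It was 0.68 ± 0.15 (SE) for Cyp4a32 (edgeR adjusted p = 0.00359), with 6 of 9 mice above all ND + veh mice.

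The other 4 members did not pass this test. The log2 fold change of Cyp4a31 was 0.67 ± 0.25 (SE; edgeR adjusted p = 0.0838), and without ND + veh mouse 4 it was 0.87 with an edgeR adjusted p of 0.0184. Beside left-out mice, 6 of 13 alternative fits also called Cyp4a31 higher, among them DESeq2 and limma voom, with adjusted p down to 0.00376. The 6 include the fit with summed copies, where Cyp4a31 took the value of its trio (log2 fold change 0.87, edgeR adjusted p = 0.00551). Cyp4a10 held nearly all counts of that sum, so this call does not speak for Cyp4a31 itself. Cyp4a14 showed -0.15 (edgeR adjusted p = 0.857). Cyp4a12a showed -0.22 (edgeR adjusted p = 0.806) and Cyp4a12b -0.23 (edgeR adjusted p = 0.872). For the Cyp4a12 pair both signs turned when ND + veh mouse 8 was left out, to 0.28 for Cyp4a12a and 0.81 for Cyp4a12b, neither past the test.

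**Figure D3:**
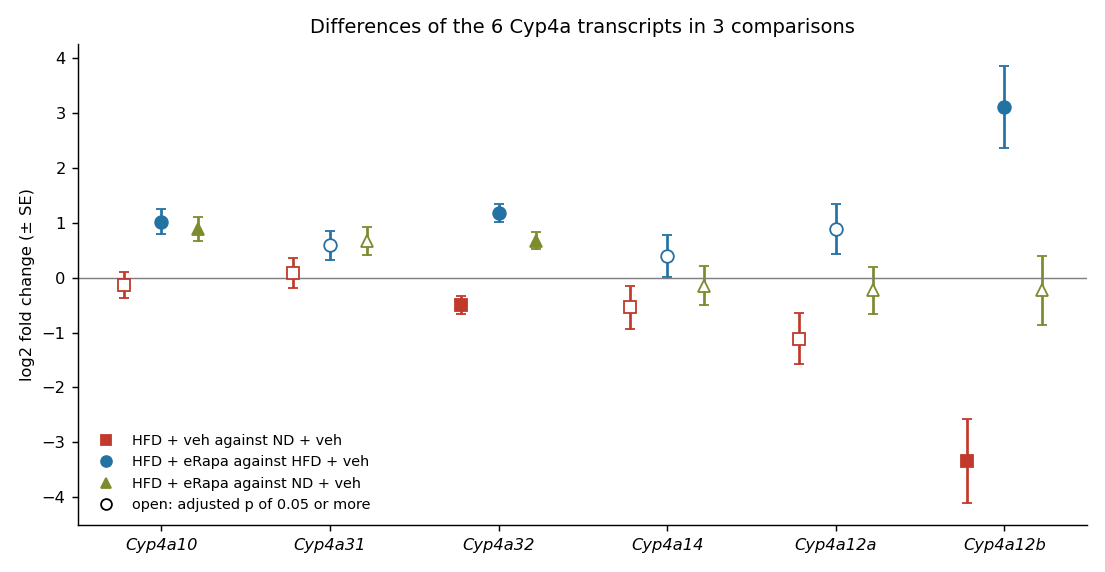
Log2 fold change of each member in the 3 comparisons, with bars of 1 SE from the edgeR fit. Filled symbols passed an adjusted p of 0.05: Cyp4a12b and Cyp4a32 for HFD + veh against ND + veh, Cyp4a10, Cyp4a32 and Cyp4a12b for HFD + eRapa against HFD + veh, and Cyp4a10 and Cyp4a32 for HFD + eRapa against ND + veh.

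A ratio of 2 members within the same mouse does not depend on library size, and asks whether the members moved by unequal amounts. For Cyp4a14 to Cyp4a10 counts, the log2 ratio ran from -0.64 over a median of 1.72 to 2.03 in ND + veh, from 0.50 over 1.27 to 1.47 in HFD + veh and from -0.31 over 0.55 to 0.78 in HFD + eRapa. All 9 HFD + eRapa mice were below the median of HFD + veh and below that of ND + veh. Against HFD + veh the mean of HFD + eRapa differed by -0.65 (two-sided exact permutation test, p = 0.00245, adjusted p = 0.0147 over the 6 ratio tests).

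Against ND + veh the mean ratio of HFD + eRapa differed by -0.90 (exact permutation p = 0.0123, adjusted p = 0.0368), but the adjusted p rose above 0.05 when any of 10 of the 17 mice was left out, with values up to 0.076. The 10 were mice 1, 3, 6, 7 and 8 of ND + veh and mice 1, 4, 5, 8 and 9 of HFD + eRapa. Between HFD + veh and ND + veh it differed by -0.25 (exact permutation p = 0.53, adjusted p = 0.636). There ND + veh mouse 4, with the ratio of -0.64, decided the result, since without it the difference was -0.54 with an adjusted exact permutation p of 0.0361.

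The log2 ratio of Cyp4a12a to Cyp4a14 compared the male-biased member with the PPARα target. Mice on ND had a mean of -3.01 ± 1.45 (SD, n = 8), HFD + veh mice one of -3.83 ± 1.88 (SD, n = 7), and HFD + eRapa mice one of -3.06 ± 1.22 (SD, n = 9). The spread within each group was wider than any gap between means, and the smallest of the 3 exact permutation p-values was 0.332 (adjusted p = 0.533).

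**Figure D4:**
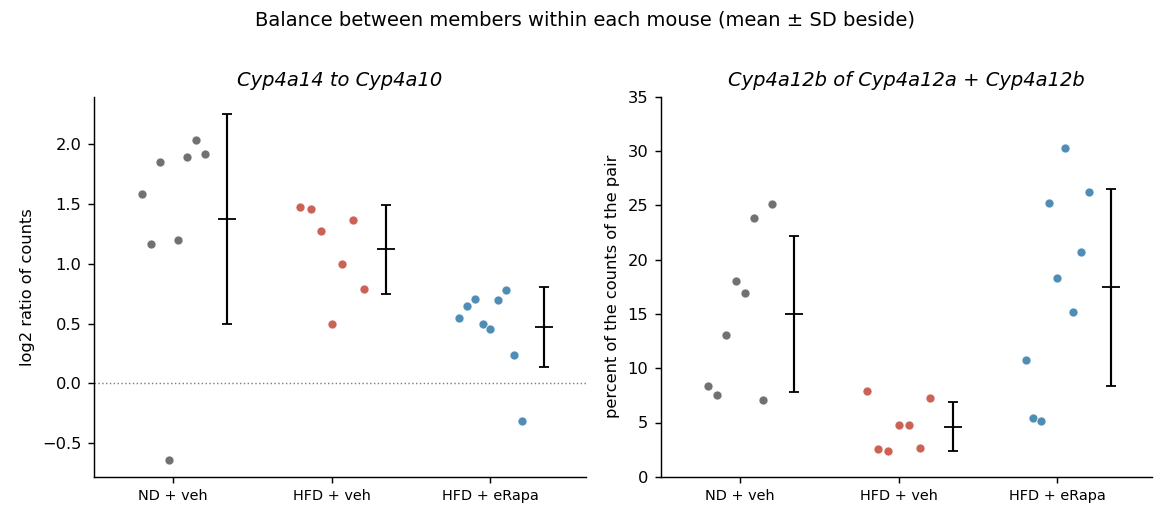
Left, log2 ratio of Cyp4a14 to Cyp4a10 counts; right, percent of the counts of the Cyp4a12 pair assigned to Cyp4a12b; 1 point per mouse with mean and SD beside. HFD + eRapa mice lie between -0.31 and 0.78 in the ratio, and HFD + veh mice hold a mean Cyp4a12b share of 4.62%.

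Members were also compared over mice after the group means were taken away, so that differences between groups do not enter the relation. Cyp4a10 and Cyp4a14 went together, with Pearson's r of 0.79 (permutation p = 5e-05, adjusted p = 0.00075 over 15 pairs, 100000 permutations within groups) and Spearman's rho of 0.86 (permutation p = 1e-05, the smallest these permutations can give, adjusted p = 0.00015) over 24 mice. Pearson's r was 0.65 within ND + veh, 0.87 within HFD + veh and 0.95 within HFD + eRapa. Without ND + veh mouse 1 and HFD + veh mouse 5, the mice farthest from the median of Cyp4a10, it was 0.81.

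Cyp4a12a and Cyp4a12b also went together (r = 0.70, permutation p = 0.00021, adjusted p = 0.00157; rho = 0.65, permutation p = 0.00122, adjusted p = 0.0061), with r = 0.62 without ND + veh mouse 8 and HFD + veh mouse 1. Their shared sequence can carry counts from one to the other, and the part of that in the relation was not tested. These 2 of 15 pairs passed 0.05 by the adjusted permutation p of Pearson's r, and 9 of 15 did by that of Spearman's rho. Cyp4a10 and Cyp4a14 each ran against Cyp4a12a, with r = -0.46 and -0.38 and rho = -0.61 and -0.52. The adjusted permutation p was 0.0895 and 0.128 for r and 0.0109 and 0.0259 for rho, so only the rank measure passed. For Cyp4a10 and Cyp4a14 with Cyp4a12a, Pearson's r was only -0.16 and -0.08 within ND + veh. It was -0.58 and -0.73 within HFD + veh and -0.66 and -0.49 within HFD + eRapa. By rank alone Cyp4a32 also went with Cyp4a14 (rho = 0.71, adjusted permutation p = 0.00225), Cyp4a10 (rho = 0.63, adjusted permutation p = 0.00697) and Cyp4a31 (rho = 0.51, adjusted permutation p = 0.0459). Within HFD + veh, however, Pearson's r of Cyp4a31 and Cyp4a32 was -0.40. Cyp4a10, Cyp4a31 and Cyp4a32 share sequence too, and the part of that in their relations was not tested. Since Cyp4a10 went with Cyp4a14, this limit also bears on Cyp4a32 with Cyp4a14. Also by rank alone, Cyp4a12b ran against Cyp4a10 and Cyp4a14 (rho = -0.55 for each, adjusted permutation p = 0.0184). Pearson's r of these pairs was -0.03 and -0.07 within ND + veh, -0.56 and -0.83 within HFD + veh, and -0.77 and -0.70 within HFD + eRapa.

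Genes whose log2 CPM followed a member most closely over the 24 libraries were named by rank of Pearson's r, as a description that includes the group differences. For Cyp4a10 they were Acot12, a cytosolic acetyl-CoA thioesterase (r = 0.82), Hsd17b4, the D-bifunctional enzyme of peroxisomal beta-oxidation (r = 0.81), and Ldha, lactate dehydrogenase A (r = 0.80). For Cyp4a14 they were Inmt, an indolethylamine methyltransferase (r = 0.75), Elovl5, an elongase of polyunsaturated fatty acids (r = 0.75), and Rdh16, a retinol dehydrogenase (r = 0.73). For Cyp4a12a they were Nat8f5, of the N-acetyltransferase 8 family (r = 0.81), Ugt2b1, a glucuronosyltransferase (r = 0.79), and Mup20, a male-biased major urinary protein (r = 0.76).

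Around the enzymes, genes of later steps were read from lists. Beside the counts of every list below stand the shares over all tested genes. On HFD + veh against ND + veh 16.0% were called higher and 9.86% lower. With eRapa 10.9% were higher and 21.1% lower against HFD + veh, and 6.93% higher and 6.54% lower against ND + veh. The first list held 18 genes of omega-oxidation after the hydroxylation and of peroxisomal shortening, all of them tested. On HFD + veh against ND + veh 4 were lower and 0 higher, with a median log2 fold change of -0.24. The 4 were Adh1 and Adh4, alcohol dehydrogenases (log2 fold changes of -0.53 and -0.66), Aldh3a2, the fatty aldehyde dehydrogenase that follows omega-hydroxylation (-0.63), and Crat, carnitine acetyltransferase (-0.72). On HFD + eRapa against HFD + veh 13 of the 18 were higher and 0 lower, with a median of 0.76. Against ND + veh 9 were higher and 0 lower, with a median of 0.46. This list and those below were chosen with earlier results of these data known, so their counts are a description and not a test.

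Aldh3a2 had the largest difference of this list with eRapa. It ran from 383 over a median of 548 to 622 CPM in ND + veh, from 213 over 340 to 551 CPM in HFD + veh and from 669 over 889 to 1218 CPM in HFD + eRapa, so that the HFD + eRapa mice overlapped neither other group. It was higher than in HFD + veh by 1.49 ± 0.19 (SE) on the log2 scale, with an edgeR adjusted p of 1.6e-05. Crat ran from 60.5 over 85.6 to 111 CPM in ND + veh, from 27.2 over 53.9 to 67.2 CPM in HFD + veh and from 64.0 over 100.2 to 126 CPM in HFD + eRapa. It was lower on HFD (-0.72 ± 0.17, edgeR adjusted p = 0.00548) and higher with eRapa (0.87 ± 0.17, edgeR adjusted p = 0.000829).

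The second list held 25 other targets of PPARα, all tested. On HFD + veh against ND + veh 5 were lower and 2 higher, with a median log2 fold change of -0.24. Fgf21, a secreted hormone of the fasted liver, fell by 2.50 on the log2 scale (SE 0.47, edgeR adjusted p = 0.00091), and Acot1, a cytosolic acyl-CoA thioesterase, fell by 2.32 (SE 0.30, edgeR adjusted p = 2.27e-05). On HFD + eRapa against HFD + veh 21 of the 25 were higher and 1 lower, with a median of 0.61. Acot1 rose by 1.46 ± 0.29 (SE; edgeR adjusted p = 0.000964), whereas Fgf21 showed 0.16 ± 0.43 (SE; edgeR adjusted p = 0.805). The 1 lower gene was Cd36, a fatty acid uptake protein (-1.25, edgeR adjusted p = 0.0216), named after its value was seen. Against ND + veh 13 were higher and 3 lower. Among the lower were Acot1 (-0.86 ± 0.26 (SE), edgeR adjusted p = 0.0312) and Fgf21 (-2.35 ± 0.42 (SE), edgeR adjusted p = 0.000514). Over alternative fits the count of higher genes in this list with eRapa ran from 11 to 21 of 25, and it was 13 with a score of immune cell markers in the fit and 11 with one of endothelial, stellate and cholangiocyte markers.

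Of 13 receptors and redox partners, 0 were higher and 2 lower on HFD + veh against ND + veh, 4 were higher and 1 lower on HFD + eRapa against HFD + veh, and 2 were higher and 2 lower against ND + veh. The 2 lower on HFD lay near the 9.86% of tested genes called lower. The 1 lower with eRapa lay under the 21.1% called lower, and the 4 higher stand beside 10.9% called higher. Ppara itself, the receptor, ran from 45.8 over a median of 69.6 to 101 CPM in ND + veh, from 29.98 over 44.0 to 123 CPM in HFD + veh and from 93.8 over 113 to 152 CPM in HFD + eRapa. Its log2 fold change was -0.35 ± 0.24 (SE) on HFD (edgeR adjusted p = 0.276) and 1.06 ± 0.24 with eRapa (edgeR adjusted p = 0.00236). Rxra, its dimer partner, differed by 0.55 ± 0.20 (SE) with eRapa (edgeR adjusted p = 0.0364). The 1 lower gene with eRapa was Ppargc1a (-0.89 ± 0.23 (SE), edgeR adjusted p = 0.00525), named after its value was seen. Against ND + veh Ppargc1a was lower too (-0.78 ± 0.22, edgeR adjusted p = 0.0176). The counts of this list rested on single mice: with eRapa against HFD + veh 7 were higher without HFD + veh mouse 2 and 2 without HFD + veh mouse 3, 4 or 6 or HFD + eRapa mouse 3, 5, 6 or 8.

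Cyb5a was higher with eRapa by 0.55 ± 0.12 (SE; edgeR adjusted p = 0.00172), while its difference on HFD was 0.0028 ± 0.12 (edgeR adjusted p = 0.989). Por, which all microsomal P450 enzymes need, showed 0.68 ± 0.33 (SE) with eRapa and did not pass the test (edgeR adjusted p = 0.118). Ppard, a related fatty acid receptor, fell by 1.63 on the log2 scale on HFD (SE 0.29, edgeR adjusted p = 0.000513).

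Of 14 other Cyp4 genes 9 were tested. On HFD + veh against ND + veh 3 were higher and 3 lower, on HFD + eRapa against HFD + veh 2 were higher and 3 lower, and against ND + veh 0 passed in either direction by edgeR (1 at an unadjusted p under 0.05, and at most 1 in each direction by the alternative fits). Cyp4f14, a leukotriene B4 omega-hydroxylase, was lower on HFD (-0.90 ± 0.25 (SE), edgeR adjusted p = 0.0146). Cyp4f18, at a mean log2 CPM of -0.37 over all libraries, was among the 3 higher on HFD and the 3 lower with eRapa. Cyp4b1, which follows Cyp4a32 just outside the cluster, differed by -1.54 with eRapa (SE 0.40, edgeR adjusted p = 0.00616), opposite in sign to its neighbour. With either marker score in the fit, 0 of the 9 were called in either direction with eRapa against HFD + veh, Cyp4b1 included. On HFD 1 was higher and 1 lower with the immune score, 1 higher and 2 lower with the other score, and 1 higher without ND + veh mouse 1 or HFD + veh mouse 6.

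Because Cyp4a12a is male-biased, genes with known sex bias in mouse liver were read as well. Of 14 male-biased genes 13 were tested. On HFD + veh against ND + veh 6 were lower and 0 higher, with a median log2 fold change of -0.87. On HFD + eRapa against HFD + veh 10 were higher and 0 lower, with a median of 2.43, and against ND + veh 5 were higher and 0 lower. Slco1a1, an organic anion transporter, ran from 95.7 over 352 to 565 CPM in ND + veh, from 1.98 over 4.43 to 26.4 CPM in HFD + veh and from 199 over 496 to 732 CPM in HFD + eRapa. Its log2 fold change was -5.41 ± 0.58 (SE) on HFD (edgeR adjusted p = 2.52e-06) and 5.80 ± 0.59 with eRapa (edgeR adjusted p = 2.06e-06). With either marker score in the fit, 6 of the 13 were higher and 1 lower with eRapa against HFD + veh, and 5 were lower on HFD.

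Of 15 female-biased genes 7 were tested, with 3 higher and 0 lower on HFD, 1 higher and 4 lower with eRapa against HFD + veh, and 0 higher and 2 lower against ND + veh. Cyp2b13 and A1bg, both near the floor, were among the 3 higher on HFD and the 4 lower with eRapa. Their mean log2 CPM over all libraries was -0.78 and -0.65. Cyp2b9, a female-biased P450, ran from 1.25 over 36.3 to 81.5 CPM in ND + veh, from 109 over 198 to 218 CPM in HFD + veh and from 2.16 over 7.54 to 50.0 CPM in HFD + eRapa. It was higher on HFD (2.19 ± 0.76 (SE), edgeR adjusted p = 0.0371) and lower with eRapa (-3.33 ± 0.76, edgeR adjusted p = 0.00285). Cyp2a4, a steroid hydroxylase, was lower with eRapa (-4.64, edgeR adjusted p = 0.00362). The 3 higher on HFD became 1 with either marker score in the fit, and also without ND + veh mouse 1, 2 or 3 or HFD + veh mouse 3, 4 or 6. With eRapa against HFD + veh 0 were higher and 3 lower with either score.

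Of 11 regulators of sex-biased expression, 3 were higher and 4 lower on HFD, and 5 were higher and 0 lower with eRapa against HFD + veh. Against ND + veh 2 were higher and 0 lower. Socs2, which growth hormone induces, differed by -2.32 ± 0.44 (SE) on HFD (edgeR adjusted p = 0.000989) and by 1.86 ± 0.42 with eRapa (edgeR adjusted p = 0.00275). Igf1, of the same list, went the other way on HFD (0.62 ± 0.17 (SE), edgeR adjusted p = 0.0142). With eRapa against HFD + veh Igf1 did not pass the test (0.27 ± 0.17, edgeR adjusted p = 0.226). Onecut1, a liver transcription factor, differed by -1.69 ± 0.57 (SE) on HFD (edgeR adjusted p = 0.0331) and by 2.38 ± 0.58 with eRapa (edgeR adjusted p = 0.00416). The 5 higher with eRapa became 1 with either marker score in the fit. The 4 lower on HFD became 1 with the immune score, 2 with the other score, 1 with limma voom and 2 without HFD + veh mouse 3, 4 or 6, and the 3 higher became 1 without HFD + veh mouse 6.

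**Figure D5:**
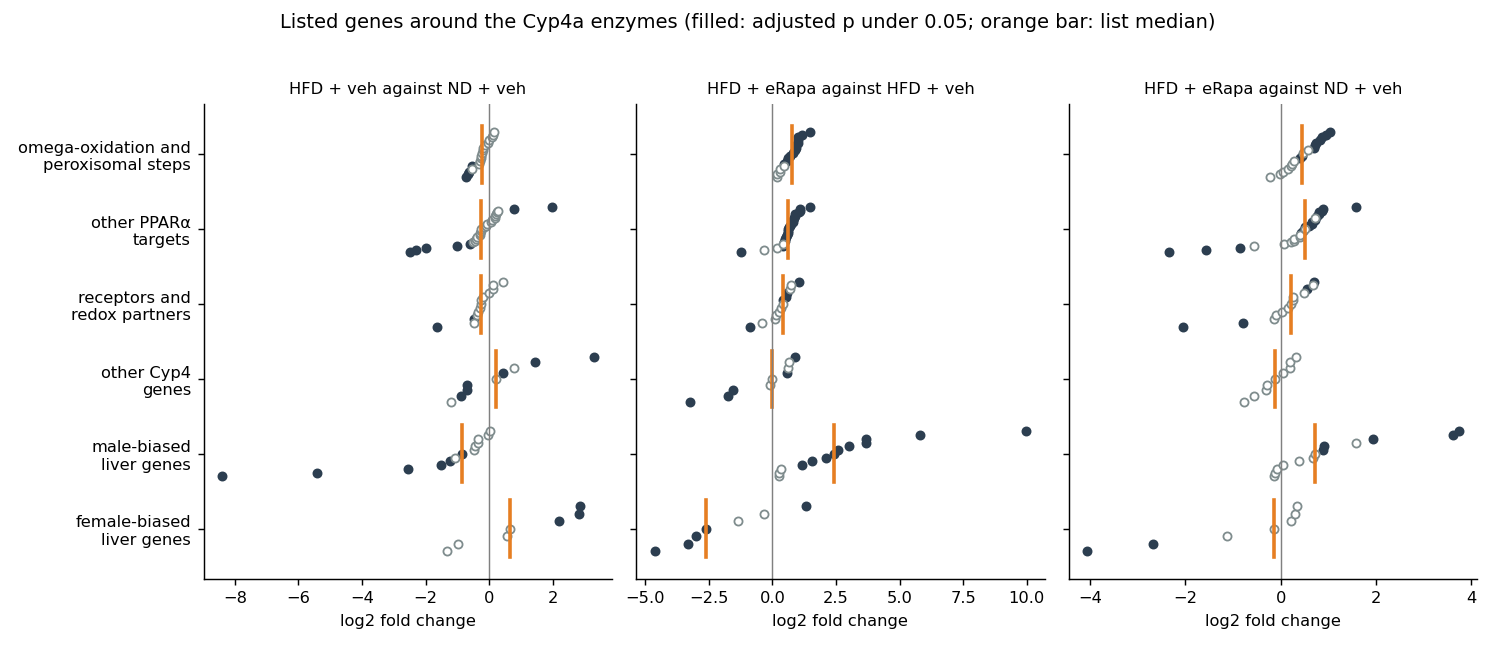
Log2 fold change of each tested gene of 6 lists in the 3 comparisons, 1 point per gene, filled where the edgeR adjusted p was under 0.05, with the list median as an orange bar and a separate x axis for each panel. With eRapa against HFD + veh, 13 of 18 omega-oxidation and peroxisomal genes and 21 of 25 other PPARα targets are filled on the right of 0. Over all tested genes 10.9% were called higher in that comparison.

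Markers of other liver cells differed between the groups. Summed over 8 macrophage markers, the level was 32.6 to 1025 CPM in ND + veh, 119 to 3278 CPM in HFD + veh and 12.2 to 745 CPM in HFD + eRapa. On HFD + veh against ND + veh 2 of the 8 were higher, as were 1 of 6 endothelial and 1 of 6 stellate cell markers. Over all tested genes 16.0% were called higher, so the endothelial and stellate counts lay near that share. Of the tested markers, 3 of 3 for cholangiocytes, 2 of 3 for neutrophils and 1 of 1 for lymphocytes were higher. With eRapa against HFD + veh 7 of the 8 macrophage markers were lower, as were 6 of 6 endothelial and 6 of 6 stellate cell markers. These stand beside 21.1% of tested genes called lower. Of the tested markers, 1 of 3 for cholangiocytes, 2 of 3 for neutrophils and 1 of 1 for lymphocytes were lower. Against ND + veh 3 of 6 stellate cell markers were lower with eRapa, beside 6.54% of tested genes called lower. In that comparison 1 of 3 tested cholangiocyte markers was higher, and 0 of the macrophage and endothelial markers were called. The summed endothelial level was 82.9 to 551 CPM in HFD + veh and 44.0 to 254 CPM in HFD + eRapa, and the summed stellate level was 33.5 to 412 and 19.5 to 98.9 CPM. Lymphocyte markers summed to 3.97 to 484 CPM in HFD + veh and to at most 34.7 CPM in the other groups, cholangiocyte markers to 13.0 to 362 CPM in HFD + veh and to at most 59.1 CPM elsewhere, and neutrophil markers to at most 39.9 CPM anywhere, with Ly6g at 0 in ND + veh and HFD + eRapa. Of the 8 hepatocyte markers 1 was lower on HFD and 1 higher with eRapa, near the 9.86% and 10.9% of tested genes so called.

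When edgeR took the immune marker score into account, Cyp4a10 and Cyp4a32 were still called higher with eRapa against HFD + veh, and the Cyp4a32 call on HFD was lost (adjusted p = 0.0545). With a score of endothelial, stellate and cholangiocyte markers as the covariate, 4 members were called higher with eRapa, Cyp4a31 among them (log2 fold change 1.07, adjusted p = 0.0134). The part of other cells in the remaining differences was not tested.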

How the data were processed

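Poly(A) RNA of hepatocytes from 24 mice was sequenced by the authors. Reads were aligned by the authors with STAR (2-pass) to mm10 with a Gencode annotation (vM23) and filtered with SAMtools 1.1.0. The deposited counts are unnormalised reads per gene from HTSeq 0.11.2, and the deposited FPKM values were made by the authors with Cufflinks. Strand use in counting was not given in the sources used here.

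Groups came from the sample labels. Counts were tested with edgeR 4.0.16 in R 4.3.3 (filterByExpr, TMM, robust quasi-likelihood fit of all 24 libraries, Benjamini-Hochberg over 13847 genes). The SE of a log2 fold change was taken as its size over the root of the F statistic. Alternatives used DESeq2 1.42.0, limma 3.58.1 (voom, and limma-trend on log2(FPKM + 1)), other filters and scalings, marker scores as covariates, summed copies, a replicate block and the removal of each library. The fits were tested on simulated data. Depth was 17.7 to 25.9 M counts, and no pair of libraries in a group agreed within sampling noise. Gene positions and transcripts came from Gencode M21 on GRCm38.

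The members and gene lists were chosen with earlier results of these data known. Named were the 6 members, Ppara, Rxra, Por and Cyb5a, the 3 genes closest in pattern to Cyp4a10, Cyp4a14 and Cyp4a12a, and from each list the called gene with the largest difference in each of the first 2 comparisons, at a mean log2 CPM of at least 3. Other named list genes were chosen after their values were seen.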

Additional observations from a re-analysis of the deposited data

Results flagged for a closer look

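Each group's highest and lowest value was compared with its neighbours for the 6 members and for the ratio of Cyp4a14 to Cyp4a10 and of Cyp4a12a to Cyp4a14. Of 24 such group measures 4 held a sample far from the others, where chance alone gives about 1.2. The measures are not independent, because the Cyp4a12 pair shares sequence and the ratios reuse values of the members. An excess over chance can therefore not be judged from these counts. ND + veh mouse 8 had the highest Cyp4a12a level of its group, 8.54 in log2 CPM against 5.86 to 7.01 in the other 7 mice. The same mouse had the highest Cyp4a12b level, 6.97 against 2.54 to 4.62. In the log2 ratio of Cyp4a14 to Cyp4a10, ND + veh mouse 4 stood apart at -0.64 against 1.17 to 2.03, and HFD + eRapa mouse 9 at -0.31 against 0.24 to 0.78.

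A further signal appeared outside the members. Cyp4a29-ps1, an unprocessed pseudogene of 1.046 kb that lies before the cluster on the chromosome, was listed at an FPKM of 140.0 in HFD + veh mouse 5, at 0 FPKM in the other 6 mice of that group, and with 0 counts in the count table of that library, which allows up to 3 counts. The cause of the gap between the tables was not tested.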

How the results depend on the processing

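For HFD + veh against ND + veh, the 2 called members became 0 with limma voom and 1 with only these groups in the fit, with the immune marker score as covariate or with any of the 3 limma fits of FPKM. With single libraries left out they numbered 1 to 2, with 1 when ND + veh mouse 6 or 8 or HFD + veh mouse 3 or 6 was left out. The counts for the other comparisons, 3 and 2 members, ran from 2 to 4 and from 2 to 3. Same-numbered mice were different animals and were not taken as pairs. Their deviations correlated over 0.1 in 5 of 7 pairs for HFD + veh and ND + veh (mean 0.32). They did so in 2 of 7 for HFD + eRapa and HFD + veh (mean -0.24) and in 2 of 8 for HFD + eRapa and ND + veh (mean -0.20). For HFD + veh and ND + veh, single pairs ran from -0.36 to 0.73, and what these libraries shared was not tested. With the replicate number as a block, 1 member was called for HFD + veh against ND + veh, Cyp4a12b, and the ratio of Cyp4a14 to Cyp4a10 differed by -0.50 against HFD + veh and by -0.80 against ND + veh, both with an adjusted exact sign-flip p of 0.117.

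With single mice left out, the log2 ratio of Cyp4a14 to Cyp4a10 differed by -0.54 to -0.15 for HFD + veh against ND + veh and by -1.19 to -0.80 for HFD + eRapa against ND + veh. That of Cyp4a12a to Cyp4a14 differed by -0.31 to 0.32 for HFD + eRapa against ND + veh, with no call in either sign. Among differences that never passed the test, the sign of Cyp4a31 on HFD turned to -0.20 and -0.11 with the immune and the other marker score as covariate and to -0.15 for the summed trio, and ran from -0.068 to 0.26 with single libraries left out. Against ND + veh, Cyp4a14 with eRapa turned to 0.11 with the block and ran from -0.32 to 0.016 with libraries left out. Cyp4a12a turned to 0.083 with the second marker score and ran from -0.38 to 0.28. Cyp4a12b turned to 0.081 with voom, 0.011 with the block and 0.22 with the second marker score, and ran from -0.44 to 0.81. The cause of these shifts was not tested. Of 234 member values under alternatives other than left-out libraries, 202 kept their direction and their side of the threshold. In the fit with summed copies, each copy took the value of its sum.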
